A study of Mus musculus with 12 samples.

Results

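The nuclear genes that encode respiratory complexes II to V were followed in mouse G1E-ER-GATA-1 cells. They were taken by gene symbol: Sdha, Sdhb, Sdhc, Sdhd and Cyc1, and every symbol that begins with Uqcr, with Cox4, Cox5, Cox6, Cox7 or Cox8, or with Atp5, pseudogenes left out. The rule found 48 of the 25097 genes in the deposited tables. Complex II (succinate dehydrogenase) has 4 of them, complex III (cytochrome bc1) 9, complex IV (cytochrome c oxidase) 18 and complex V (ATP synthase) 17. Of the 48, 43 passed the filter on low counts and were tested. The other 5, Cox4i2, Cox6a2, Cox7b2, Cox8b and Cox8c, are complex IV isoforms at or near 0 counts. Atp5s (factor B) and Cox7a2l came in by symbol, although neither is a classical subunit.

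RNA was sequenced in 12 libraries, 3 per group. G1E-ER-GATA-1 is an erythroid precursor line without GATA-1 of its own; it carries a fusion of GATA-1 and the hormone-binding part of the estrogen receptor, which estradiol activates in each group that received it. The first group was untreated WT cells and the second was WT cells given 1 µM beta-estradiol for 48 h. The third group was double mutant cells, which carry mutations at cis-elements of Alas2, given the same estradiol. The fourth was the same mutant given estradiol and 1 mM 5-aminolevulinic acid (5-ALA), which the labels give as the agent to restore heme biosynthesis. All cells grew with erythropoietin, Kit ligand medium and puromycin. An untreated mutant and a WT group with 5-ALA were not analysed here. The labels do not say whether the mutant is 1 clone or whether replicates are separate cultures, so p-values measure only the spread between these libraries, which may be technical.

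Complex II passes electrons from succinate to ubiquinone, complex III passes them on to cytochrome c, complex IV gives them to oxygen, and complex V uses the resulting proton gradient to make ATP. Nuclear genes encode all of complex II and most subunits of the others, while the mitochondrial genome encodes a few core subunits of complexes III, IV and V. Several complex IV subunits exist as isoforms with restricted tissues, among them the heart and muscle forms Cox6a2, Cox7a1 and Cox8b and the testis form Cox6b2. Developing red cells need mitochondria for heme synthesis, whose first step is made by Alas2, and discard them at the end of maturation.

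The libraries held 20309085 to 43548387 expected counts, and libraries of a group correlated at 0.992 to 0.995. Levels below are CPM, the counts of a gene scaled to a common library size after TMM normalisation, and values by library stand in the order of replicates 1, 2 and 3. Alas2 lay at 4.47 to 5.96 CPM in untreated WT, 4280 to 4309 in WT with estradiol, 5.20 to 9.48 in the mutant and 12.1 to 12.5 in the mutant with 5-ALA, low in both groups whose Alas2 elements are mutated. All 8 erythroid markers exceeded 1 CPM in every group, and together they lay at 1011 to 1034 CPM in untreated WT and 57229 to 57944 CPM in WT with estradiol. Most of the untreated sum was Gata1, at 440 to 447 CPM, and Tfrc, at 382 to 399 CPM. Reads of Gata1 may come from the introduced fusion, so they do not mark the cell type. Most of the sum with estradiol was Hbb-bs, at 46372 to 47037 CPM. The summed level of 4 mast cell markers was 134 to 150 CPM in untreated WT and 1.23 to 1.44 CPM in WT with estradiol, nearly all of it Cpa3, with Mcpt8 and Fcer1a at 0 throughout. That of 5 megakaryocyte markers was 87.4 to 92.0 CPM in untreated WT and 25.9 to 27.9 CPM in WT with estradiol, most of it Itga2b. Gp9 went the other way, at 0.613 to 0.821 CPM untreated and 2.83 to 3.92 CPM with estradiol. Gp1bb was at 0 throughout. Granulocyte and macrophage markers, mostly Cd68, summed to 2.70 to 3.11 CPM untreated and 2.12 to 2.77 CPM with estradiol. Among them Mpo was higher with estradiol, at 0.443 to 0.555 CPM against 0.0257 to 0.0750 CPM. Lymphocyte and fibroblast markers summed to at most 0.228 CPM. The part of these cells in the results was not tested, and in bulk RNA fewer cells of a type and less RNA per cell cannot be told apart.

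Together the 48 genes took 0.930% ± 0.00660 of all counts in untreated WT (SD, n = 3) and 0.438% ± 0.00202 in WT with estradiol. The share was 0.579% ± 0.0144 in the mutant with estradiol and 0.529% ± 0.00624 in the mutant with 5-ALA. Complex V had the largest share of the 4 complexes in every group, with 0.535% ± 0.00318 of counts in untreated WT against 0.204% ± 0.000947 with estradiol. The complex IV share went from 0.174% ± 0.00231 to 0.114% ± 0.00105. In all 4 complexes the 3 untreated libraries lay above the 9 others by this share of counts, and the WT libraries with estradiol lay below both mutant groups. By summed TPM the order of complex III differed, with 2863 to 3032 TPM in the mutant libraries without 5-ALA above the 2796 to 2850 TPM of the untreated ones. In complex IV the order differed in part, since mutant replicate 3, at 5442 TPM, lay above untreated replicate 2, at 5396 TPM.

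**Figure D1:**
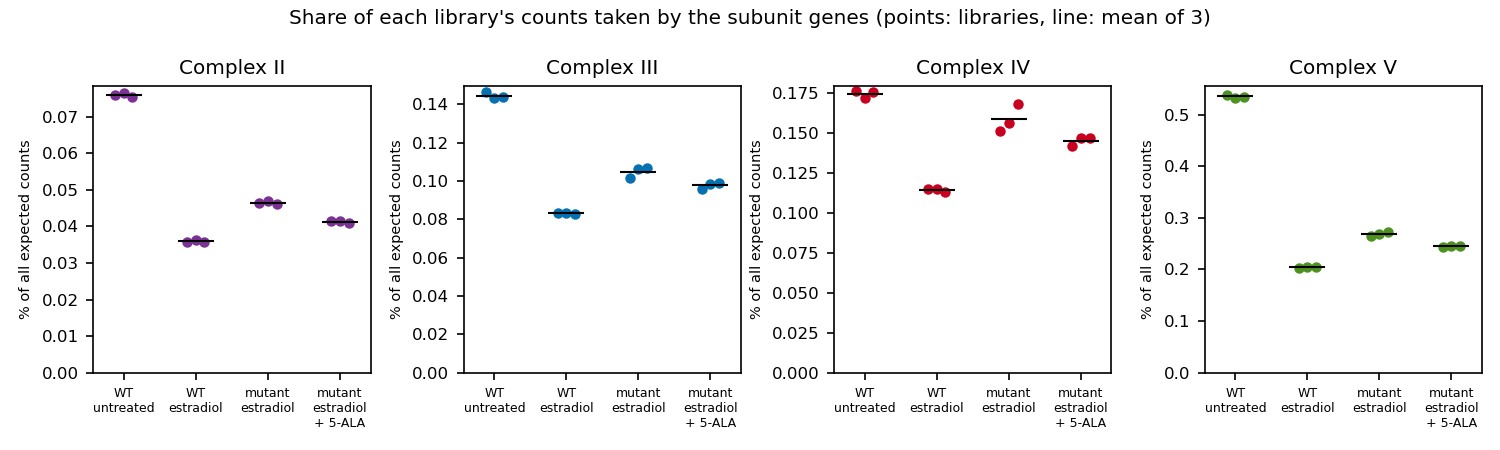
Share of each library's expected counts (%, linear axis from 0) taken by the subunit genes of complexes II, III, IV and V in the 4 groups. Points are libraries and lines are means of 3. The untreated libraries are highest and the WT libraries with estradiol lowest in each panel, and complex V goes from 0.535% to 0.204%.

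The first comparison asks what changes when GATA-1 is activated in WT cells. With estradiol 29 of the 43 tested genes fell, 7 rose and 7 were not called (edgeR quasi-likelihood test, adjusted p below 0.05). Over all 12115 genes tested, 46.4% fell and 43.3% rose, so the share of members that fell was above the background. The CPM of 31 members lay lower in every treated library than in any untreated one, and of 7 higher, against 46.7% and 43.6% of all genes. The median log2 fold change was -0.48 for the members and -0.032 for all genes. Untreated replicate 2 was the lowest of its group for 34 of the 43 members and for 49.3% of all genes. Without TMM, on library totals alone, the median of all genes moved to -0.37, 39.5% instead of 48.3% of all called genes were higher, and the members split into 35 lower and 6 higher. With TMM each of the 4 complexes held genes called in both directions, but the only riser of complex II, Sdhd, turned lower on library totals.

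In complex II 3 of the 4 transcripts fell, where 46.4% of all genes did. Sdhb, the iron-sulfur subunit, lay at 96.6, 97.8 and 97.9 CPM untreated and 30.9, 31.7 and 31.0 with estradiol. The groups did not overlap, and Sdhb fell by 1.64 ± 0.0332 (SE) on the log2 scale (edgeR adjusted p = 7.91e-28). Sdha, the flavoprotein that binds succinate, fell by 1.31 ± 0.0233 (SE) on the log2 scale (edgeR adjusted p = 3.26e-29). Sdhc, a membrane anchor, went from 103, 101 and 108 CPM to 52.5, 54.5 and 54.8 CPM (log2 fold change -0.95 ± 0.0323, edgeR adjusted p = 5.14e-22). The other anchor, Sdhd, lay at 166, 165 and 172 CPM untreated and 193, 195 and 192 with estradiol. All 3 treated libraries were higher (log2 fold change 0.21 ± 0.0231, edgeR adjusted p = 1.79e-09), but the direction turned to -0.135 on library totals and to -0.081 on TPM, so that Sdhd is called higher only relative to most other genes.

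In complex III the catalytic part and the small hinge protein moved apart. Cytochrome c1, encoded by Cyc1, lay at 176, 172 and 174 CPM untreated and 52.7, 52.9 and 50.4 with estradiol (log2 fold change -1.74 ± 0.0441, edgeR adjusted p = 4.04e-18). The Rieske iron-sulfur protein Uqcrfs1 fell by 1.44 ± 0.0367 (SE) on the log2 scale (edgeR adjusted p = 2.95e-25), and the core proteins Uqcrc1 and Uqcrc2 fell by 1.68 and 1.42 on the log2 scale. Uqcrh, the acidic hinge protein that sits beside cytochrome c1, lay at 134, 133 and 139 CPM untreated and 433, 425 and 423 with estradiol. Every treated library was about at the same high level, far above the untreated ones, a rise of 1.66 ± 0.0262 (SE, log2, edgeR adjusted p = 1.47e-30). Of the other small subunits, Uqcr11 fell by 1.27, Uqcrb by 0.37 and Uqcr10 by 0.33 on the log2 scale. Uqcrq, a small subunit beside cytochrome b, was not called at 55.6, 44.1 and 38.0 CPM untreated and 53.8, 54.0 and 58.4 with estradiol. Its untreated libraries spread so widely that the highest of them overlapped the treated group.

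In complex IV 7 of 13 tested genes were lower, 3 higher and 3 not called, where 46.4% of all genes fell and 43.3% rose. The share of complex IV genes that fell was near that of all genes. Among the broadly expressed subunits, Cox7c had the largest fall, -1.53 ± 0.0363 (SE, log2), followed by Cox7b (log2 fold change -0.79 ± 0.0299) and Cox6c (log2 fold change -0.58 ± 0.0259). Cox4i1, the most abundant nuclear transcript of the complex per length, lay at 309.7, 301 and 310.2 CPM untreated and 224, 224 and 219 with estradiol (log2 fold change -0.46 ± 0.0233, edgeR adjusted p = 1.3e-17). Its untreated libraries were all above the treated ones. Cox6a1 went the other way, from 104, 89.6 and 88.6 CPM to 187, 181 and 178 CPM (log2 fold change 0.95 ± 0.116, edgeR adjusted p = 4.4e-05), with no overlap. Cox5b, Cox8a and Cox7a2l were not called. Cox8a lay at 129.9, 109 and 110.0 CPM untreated and 108, 107 and 106 with estradiol, and Cox7a2l at 100.3, 101 and 106 and 99.3, 100.2 and 98.6 CPM. Neither gene's groups overlapped, and on library totals both were called lower, whereas with the stricter filter Cox7a2l was called higher (0.088).

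The heart and muscle form Cox7a1 showed a change of isoform balance. It lay at 2.45, 2.74 and 2.54 CPM untreated and 25.7, 28.5 and 28.2 with estradiol, a rise of 3.42 ± 0.078 (SE, log2, edgeR adjusted p = 1.75e-26). All 3 treated libraries lay far above the untreated ones. Its broadly expressed counterpart Cox7a2 lay at 89.7, 87.6 and 97.0 CPM untreated and 66.5, 65.5 and 64.5 with estradiol (log2 fold change -0.48 ± 0.0347, edgeR adjusted p = 8.69e-14). By the authors' TPM, a level per transcript length, Cox7a1 made up 5.94% ± 0.526 of the sum of both genes in untreated WT (SD, n = 3), and 48.4% ± 1.76 with estradiol. In the mutant it made up 47.0% ± 0.988, and with 5-ALA 54.8% ± 2.36.

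Other restricted isoforms stayed rare. The testis form Cox6b2 had 5 counts over the 3 untreated libraries and 197 over the 3 with estradiol, a ratio of 49.6 (95% interval 20.9 to 154, counting error only). Even so it reached only 2.48, 2.66 and 1.94 CPM, and by TPM it was 2.12% ± 0.371 of the sum with Cox6b1. Cox6b1 itself lay at 132, 131 and 139 CPM untreated and 116, 114 and 117 with estradiol (log2 fold change -0.21 ± 0.0303, edgeR adjusted p = 1.74e-07). The heart form Cox6a2 had 21 counts in untreated WT and 0 in WT with estradiol, which allows up to 3 counts over the group, then 29 in the mutant and 9 in the mutant with 5-ALA. Cox6a2 shares exon sequence with Itgad on the opposite strand, and reads of these genes cannot be told apart if counting ignored strand, which is not given in the sources used here. Cox4i2 had 2, 11, 5 and 8 counts in the 4 groups. Cox8b and Cox8c had at most 2 counts in any group and Cox7b2 had 0 in all 12 libraries.

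In complex V 12 of the 17 genes fell, where 46.4% of all genes did. Among them were 4 of the 5 of the head and central stalk and all 3 of the rotor ring. The gamma subunit Atp5c1, the central shaft, lay at 262, 254 and 263 CPM untreated and 48.8, 52.4 and 51.9 with estradiol. No library overlapped, and Atp5c1 had the largest fall of all members, -2.35 ± 0.0298 (SE, log2, edgeR adjusted p = 5.01e-33). The catalytic beta subunit Atp5b, the most abundant member per length in untreated cells, went from 1667, 1617 and 1647 CPM to 548, 546 and 559.9 CPM (log2 fold change -1.58 ± 0.0239). Its partner in the head, Atp5a1 (alpha), fell by 1.53 ± 0.0248 (SE) on the log2 scale (edgeR adjusted p = 2.87e-30), and Atp5d (delta) fell by 0.51 on the log2 scale. The fifth head and stalk gene, Atp5e (epsilon), was not called (log2 fold change 0.066 ± 0.0498).

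The 3 genes that encode the same subunit c of the rotor ring all fell. Atp5g1 lay at 152, 149 and 159 CPM untreated and 42.9, 41.2 and 46.9 with estradiol (log2 fold change -1.82 ± 0.0403). Atp5g2 lay at 103, 96.7 and 99.6 CPM untreated and 25.4, 31.6 and 25.7 with estradiol (log2 fold change -1.85 ± 0.124). Atp5g3 lay at 254, 240.1 and 251 CPM untreated and 110.4, 109.8 and 116 with estradiol (log2 fold change -1.15 ± 0.0292). None of the 3 had overlapping groups, and Atp5g3 fell least, so that its share of the summed TPM of the 3 genes was 48.4% ± 0.336 untreated and 59.9% ± 1.19 with estradiol (SD, n = 3).

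The stalk and membrane parts of complex V did not move as one. In the peripheral stalk, Atp5o (OSCP) fell by 1.31 and Atp5j (F6) by 0.64 on the log2 scale, Atp5f1 (b) was not called (log2 fold change -0.020 ± 0.0232), and Atp5h (d) rose. Atp5h lay at 124, 122 and 128 CPM untreated and 178, 182 and 175 with estradiol (log2 fold change 0.51 ± 0.0248, edgeR adjusted p = 4.68e-18). Atp5j2 (f), a small membrane subunit, went from 96.2, 96.9 and 106 CPM to 153, 151 and 150.3 CPM (log2 fold change 0.60 ± 0.0309, edgeR adjusted p = 4.36e-17). For both genes every treated library was above every untreated one. Of the other small membrane subunits, Atp5k (e) fell by 0.56 and Atp5mpl by 0.24 on the log2 scale, and Atp5l (g) was not called.

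**Figure D2:**
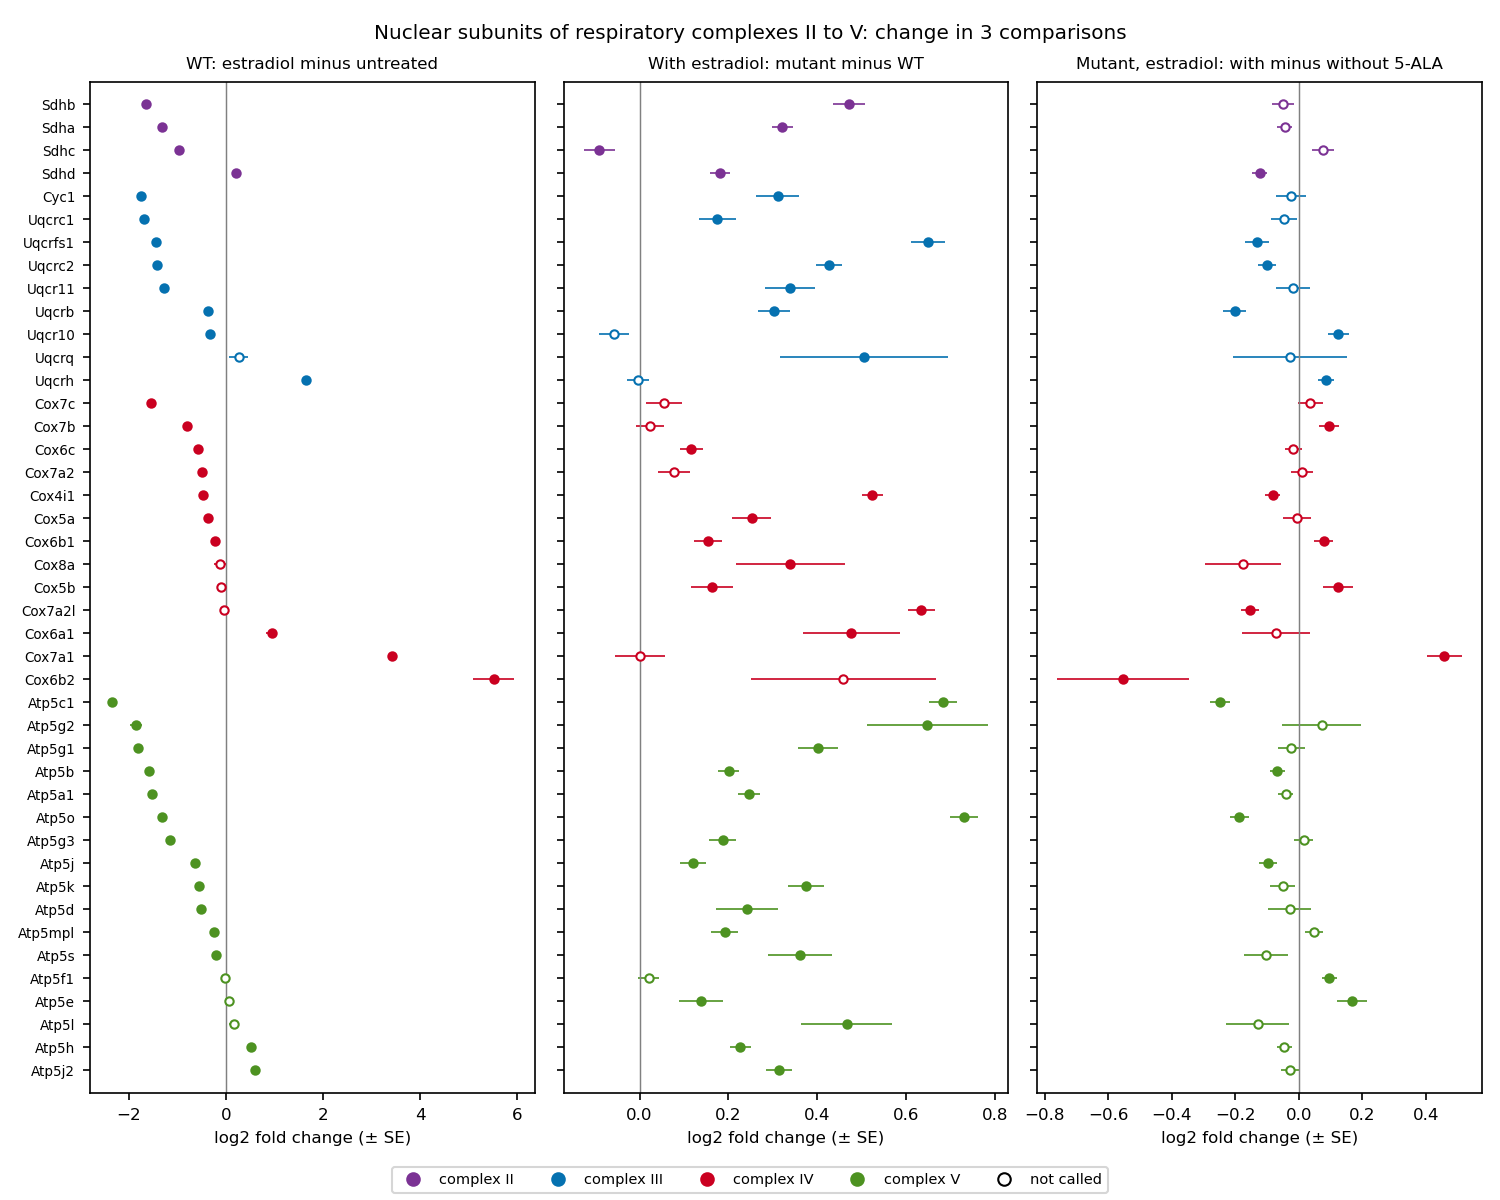
Log2 fold change (± SE) of the 43 tested genes, grouped by complex, in WT with estradiol minus untreated, in the mutant minus WT, both with estradiol, and in the mutant with minus without 5-ALA. The horizontal scales differ between panels, filled points are called at adjusted p below 0.05 and open points are not; the left panel runs from -2.35 for Atp5c1 to 5.51 for Cox6b2, and the middle panel lies mostly to the right of 0.

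These unequal changes altered the balance of transcripts within each complex. By TPM the highest complex II transcript was 1.71 times the lowest in untreated WT (Sdhc against Sdhb) and 5.47 times in WT with estradiol (Sdhd against Sdhb). In complex III Uqcrh was the highest in all 4 groups, at a mean of 499 TPM untreated and 1287 TPM with estradiol, while Uqcrfs1 was the lowest at 157 and 47.6 TPM. The ratio of Uqcrh to Uqcrc1 was 1.13 ± 0.0113 untreated and 11.2 ± 0.505 with estradiol (SD, n = 3). In complex V Atp5b led in untreated WT with 1672 TPM, whereas Atp5h led in the other 3 groups, with 510 TPM in WT with estradiol. The ratio of Atp5h to Atp5b went from 0.258 ± 0.00291 to 1.07 ± 0.0263. These ratios are levels per length within a library, so scaling between libraries does not enter them.

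**Figure D3:**
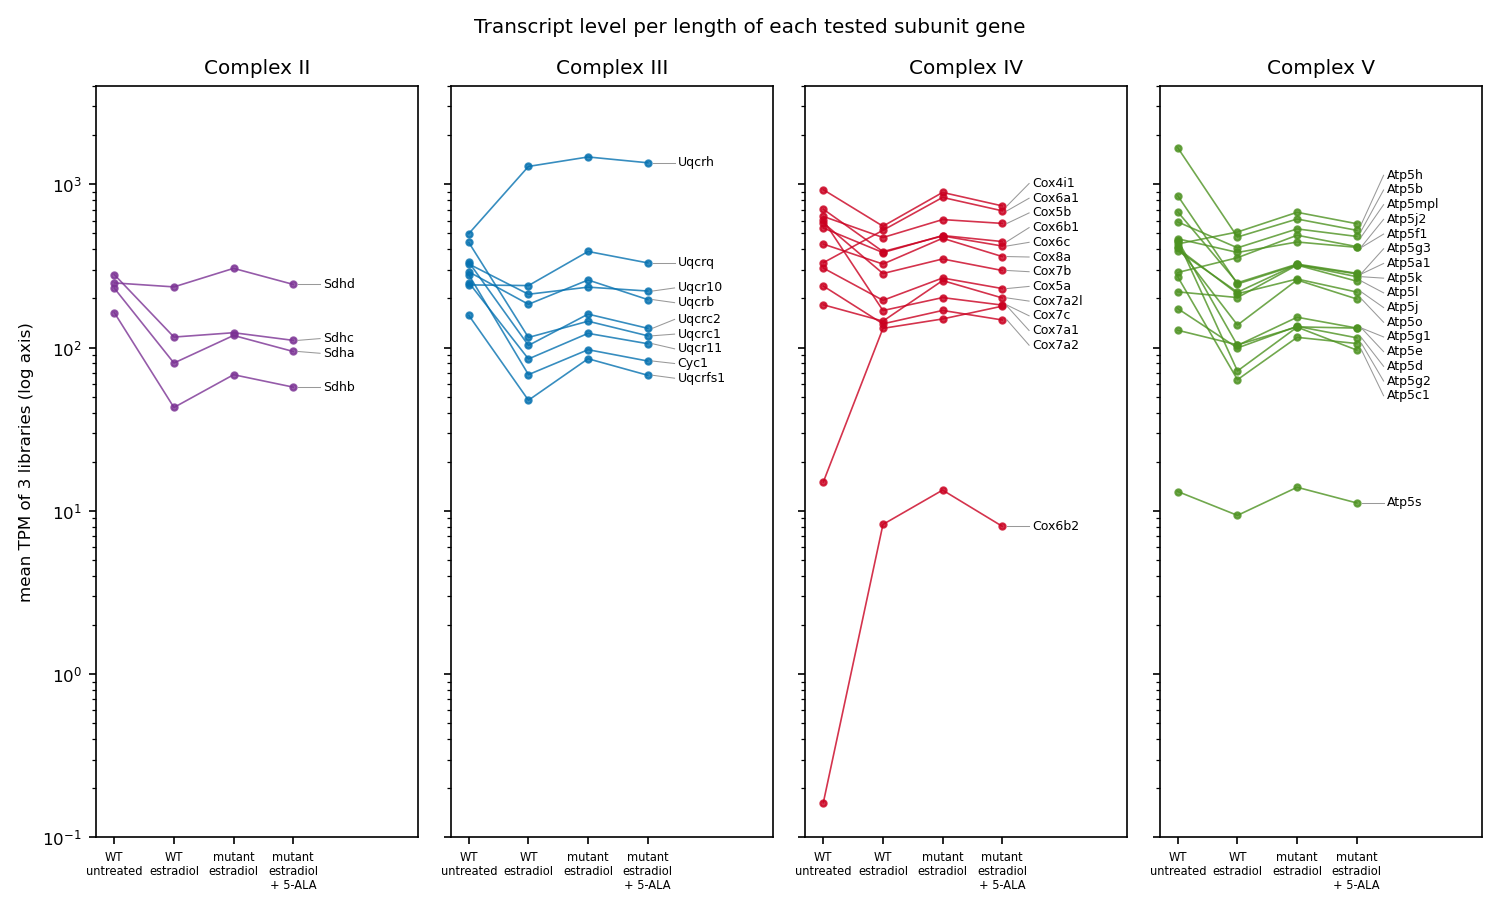
Mean TPM of 3 libraries (log axis) for each tested subunit gene in the 4 groups, in a panel per complex; grey lines lead to gene names. Most lines drop from untreated to estradiol, those of Uqcrh, Cox7a1, Cox6a1, Cox6b2, Atp5h and Atp5j2 rise, and Uqcrh goes from 499 to 1287 TPM.

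The members' change with estradiol also varied with transcript length. Of the 19 tested members under 600 bases, 9 fell and 5 rose, with a median log2 fold change of -0.12, whereas of the 24 longer ones 20 fell and 2 rose, with a median of -1.23. Over all genes tested the medians were -0.039 under 600 bases (393 genes) and -0.032 above. Spearman's rho between length and log2 fold change was -0.448 over the 43 members and 0.0935 over all genes; genes of a library share its fragment sizes and depth, and the rho is a description across genes. The catalytic subunits are among the longer transcripts and many small accessory ones among the shorter, with exceptions. Sdhd (1287 bases, log2 fold change 0.21) and Atp5f1 (1349 bases, -0.020) are long and were not called lower. Cox7c (437 bases, -1.53) is short and fell. Whether role or length goes with the change was not tested.

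Promoter windows from RefSeq (GRCm38.p6, the build of the deposited tables, mm10) were matched for 36 of the 48 members, in 39 windows, and the 250 bases before each start were searched on both strands. The ETS core CCGGAAG, a motif of the NRF2/GABP factors known from respiratory genes, was in 23.1% of the member windows and 6.9% of all 32851 windows. The short NRF1 motif TGCGCAT was in 7.7% against 2.4%, the GATA core AGATAA in 4 of 39 member windows against 3281 of all 32851, and the YY1 core ATGGCGG in 2.6% against 2.2%. Of the 7 genes that rose with estradiol, 4 had an ETS core (Uqcrh, Cox6a1, Sdhd and Atp5h), against 3 of the 21 matched genes that fell (Uqcr11, Cox6b1 and Atp5j). Of these risers Sdhd turned lower on library totals and on TPM. In 34 of the 39 member windows the bases soon after the RefSeq start were found in a GENCODE transcript of the gene. The windows of Sdhd and Atp5h were among those where they were not, so their starts are less certain. No motif contains another. A match is a description of these letters and not a binding site. The windows of Uqcrh and Sdhd are shown as risers with an ETS core, that of Cox7a1 as the riser with GATA cores, and that of Atp5c1 as the gene with the largest fall, which held none of the 4 motifs. Each is printed 5′ to 3′ on the gene's strand and ends before the RefSeq or the GENCODE start, whichever lies further upstream, with matches on either strand in capitals. They are Uqcrh at chr4:116075072-116075320 (minus strand), Sdhd at chr9:50603850-50604099 (minus strand), Cox7a1 at chr7:30183921-30184143 (plus strand) and Atp5c1 at chr2:10080511-10080760 (minus strand).
Uqcrh: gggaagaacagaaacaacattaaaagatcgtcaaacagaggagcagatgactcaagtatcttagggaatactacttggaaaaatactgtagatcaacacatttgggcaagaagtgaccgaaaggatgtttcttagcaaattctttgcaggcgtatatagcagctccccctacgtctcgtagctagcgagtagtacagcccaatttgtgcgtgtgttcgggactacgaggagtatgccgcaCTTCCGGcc
Sdhd: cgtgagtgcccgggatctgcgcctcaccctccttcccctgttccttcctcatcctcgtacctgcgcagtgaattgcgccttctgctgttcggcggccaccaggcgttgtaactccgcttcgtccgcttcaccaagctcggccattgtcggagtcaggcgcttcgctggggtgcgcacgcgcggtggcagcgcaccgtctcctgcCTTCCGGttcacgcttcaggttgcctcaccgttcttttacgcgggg
Cox7a1: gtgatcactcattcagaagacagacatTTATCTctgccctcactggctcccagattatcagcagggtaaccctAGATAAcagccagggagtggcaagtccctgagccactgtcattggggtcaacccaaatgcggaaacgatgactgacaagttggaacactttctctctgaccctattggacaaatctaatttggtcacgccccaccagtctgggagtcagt
Atp5c1: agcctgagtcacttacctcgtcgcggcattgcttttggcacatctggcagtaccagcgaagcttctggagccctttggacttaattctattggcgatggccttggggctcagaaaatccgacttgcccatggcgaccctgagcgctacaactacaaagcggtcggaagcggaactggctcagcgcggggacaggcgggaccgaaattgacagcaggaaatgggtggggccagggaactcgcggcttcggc
The ETS core began 10 bases before the RefSeq start in Uqcrh and 46 bases before it in Sdhd, and the GATA cores of Cox7a1 began 223 and 177 bases before the start. In GENCODE M21 (mm10) Uqcrh (ENSMUSG00000063882) spans chr4:116066965-116075071, Sdhd (ENSMUSG00000000171) chr9:50596357-50603812, Cox7a1 (ENSMUSG00000074218) chr7:30184144-30186078 and Atp5c1 (ENSMUSG00000025781) chr2:10056016-10080510.

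The second comparison, of mutant with WT cells under the same estradiol, asks what differs when the Alas2 elements are mutated. Of the 43 tested genes 34 were higher in the mutant, 1 was lower and 8 were not called, where 35.1% of all genes were higher and 33.6% lower. By library 36 members lay above all WT libraries and 2 below them, against 36.3% and 35.4% of all genes. The median log2 fold change was 0.25 for the members and -0.011 for all genes. In complex V 16 of 17 were higher, in complex III 7 of 9, in complex IV 8 of 13 and in complex II 3 of 4. On library totals, where the median of all genes moved to 0.14 and 66.5% of all called genes were higher instead of 51.1%, 42 members were higher and 0 lower. The 8 erythroid markers summed to 17778 to 18392 CPM in the mutant and 57229 to 57944 CPM in WT, and the megakaryocyte markers to 10.6 to 11.4 and 25.9 to 27.9 CPM; their part in the result was not tested.

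Most differences were small beside those with estradiol. Atp5o, which joins the peripheral stalk to the head, had the largest, with 71.3, 71.4 and 71.5 CPM in WT and 118, 117 and 120.2 in the mutant (log2 fold change 0.73 ± 0.0311, edgeR adjusted p = 1.53e-18). The replicates lay close together and the groups far apart. Of 30 tested genes within 2 Mb of Atp5o on chromosome 16, 13 were higher, 10 were lower and the median was 0.01. Neighbours of other members differed in this. Near Atp5d 59 of 118 were higher and 23 lower (median 0.19), and near Uqcrc2 15 of 28 were higher and 6 lower (median 0.25). Near Cox4i1 10 of 38 were higher and 18 lower (median -0.34). Whether members share a difference with their chromosome region was not tested. Atp5c1 lay at 48.8, 52.4 and 51.9 CPM in WT and 81.1, 81.0 and 83.2 in the mutant (log2 fold change 0.68 ± 0.0324, edgeR adjusted p = 1.95e-17). Uqcrfs1 lay at 41.2, 41.1 and 42.3 CPM in WT and 66.6, 66.3 and 62.5 in the mutant (log2 fold change 0.65 ± 0.0388, edgeR adjusted p = 4.7e-15). Neither gene's groups overlapped, and in both the mutant stayed below the untreated WT libraries.

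In complex IV, Cox7a2l, which promotes the joining of complexes III and IV into supercomplexes, lay at 99.3, 100.2 and 98.6 CPM in WT and 146, 158 and 157 in the mutant (log2 fold change 0.63 ± 0.0301, edgeR adjusted p = 1.98e-17). Cox4i1 lay at 224, 224 and 219 CPM in WT and 309.7, 321 and 329 in the mutant (log2 fold change 0.52 ± 0.0233, edgeR adjusted p = 4.6e-18). The mutant libraries were above all WT libraries with estradiol for both genes. Cox7a2l was also above the untreated WT libraries, which lay at 100.3, 101 and 106 CPM, whereas Cox4i1 was near them. With TMM Cox7a1 did not differ detectably, with 26.5, 27.4 and 28.2 CPM in the mutant (log2 fold change 0.00083 ± 0.0563, edgeR adjusted p = 0.992). On library totals it was called higher.

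The genes without a called difference included Uqcrh and Cox7a1. Uqcrh lay at 407, 432 and 437 CPM in the mutant and was not called (log2 fold change -0.0038 ± 0.0247, edgeR adjusted p = 0.901), although on library totals it was 0.15 higher. Cox7c, Cox7b, Cox7a2, Cox6b2, Uqcr10 and Atp5f1 were also not called. With TMM no mean of these 8 differed by more than 0.077 on the log2 scale except that of the rare Cox6b2 (log2 fold change 0.46 ± 0.207, edgeR adjusted p = 0.0543). On library totals all 8 were called higher, so that the lack of a call rests on the scaling. Sdhc was the only member called lower, with 52.5, 54.5 and 54.8 CPM in WT and 49.9, 51.1 and 50.5 in the mutant (log2 fold change -0.090 ± 0.0349, edgeR adjusted p = 0.0234). Its groups did not overlap, but the difference turned to 0.063 on library totals and to 0.088 on TPM, and its call was lost without a filter and without mutant replicate 1 or 3 or WT replicate 2 or 3. The other 3 complex II genes were higher, Sdhb with 43.6, 42.8 and 43.6 CPM in the mutant (log2 fold change 0.47 ± 0.0363, edgeR adjusted p = 1.51e-12).

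Some short transcripts spread widely between the mutant replicates. Among the 19 members under 600 bases, mutant replicate 1 was the lowest of its group for 16 and replicate 3 the highest for 12, whereas over all 12115 genes replicate 1 was the lowest for 37.1% and replicate 3 the highest for 35.6%. Cox6a1 lay at 226, 235 and 296 CPM, Atp5l (g) at 78.4, 79.2 and 100.1 CPM, and Cox8a at 116, 129 and 159 CPM in the mutant. In each the third replicate stood above the other 2. All were called higher than in WT, but the call of Cox8a (log2 fold change 0.34 ± 0.122, edgeR adjusted p = 0.0352) was lost without mutant replicate 3 and when any WT replicate was left out. Without mutant replicate 3 the count of members called higher was 32, and without mutant replicate 1 it was 37. The short Uqcrq lay at 69.8, 75.4 and 88.7 CPM in the mutant, with a call near the threshold (log2 fold change 0.50 ± 0.189, edgeR adjusted p = 0.0410). Atp5g2 is longer, at a mean of 705.5 bases. It lay at 41.0, 37.2 and 52.1 CPM in the mutant (log2 fold change 0.65 ± 0.136, edgeR adjusted p = 0.00244), also highest in the third replicate and above WT in all 3.

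**Figure D4:**
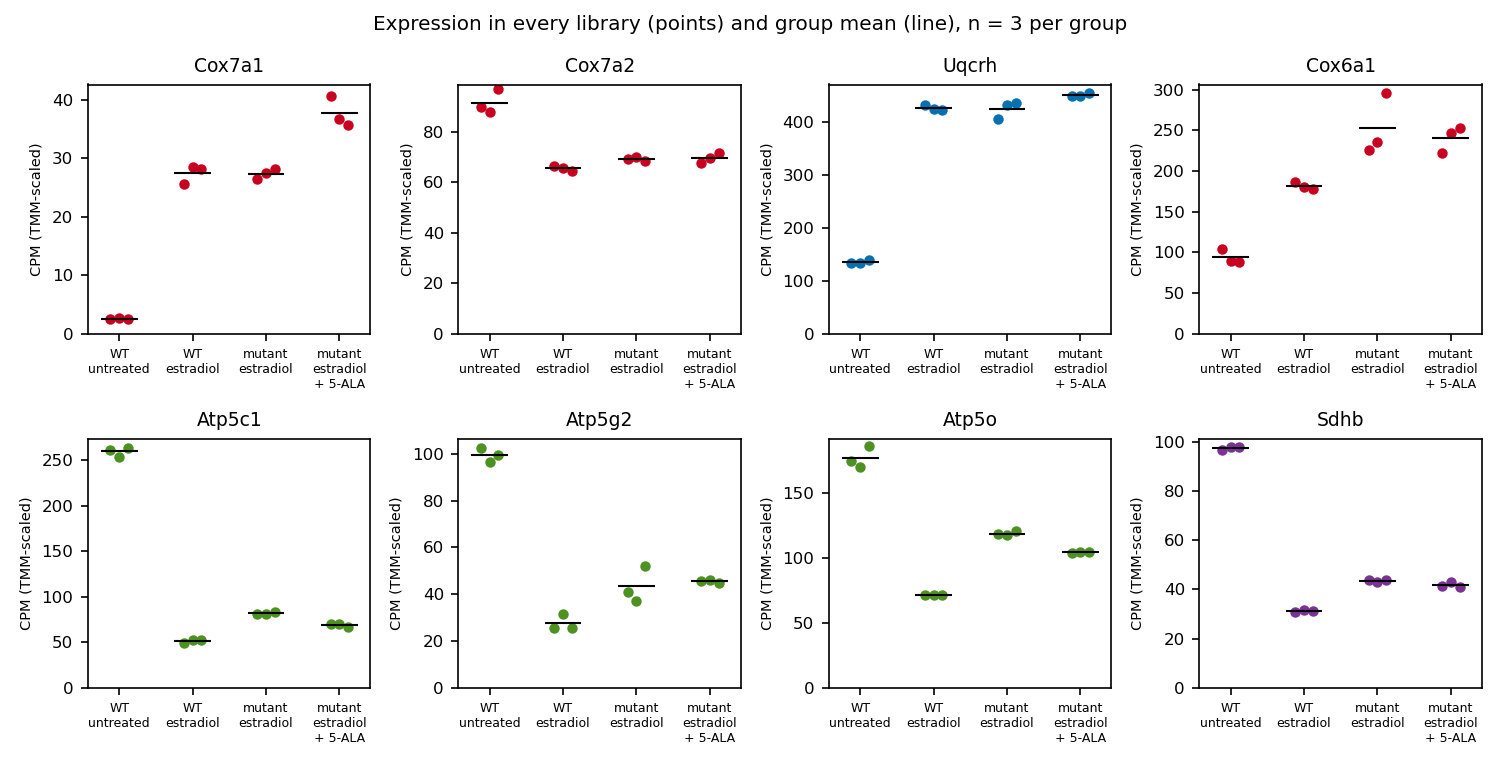
TMM-scaled CPM (linear axes from 0) of 8 subunit genes in every library of the 4 groups; points are replicates 1 to 3 from left to right and lines are means. Cox7a1, Uqcrh and Cox6a1 are higher with estradiol, Atp5c1, Atp5g2, Atp5o and Sdhb are lower, and the last 4 lie higher in both mutant groups than in WT with estradiol but below untreated WT.

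The third comparison asks what 5-ALA changes in the mutant. It shares the mutant libraries with the second comparison, so that high or low mutant values enter both with opposite signs. With 5-ALA 8 of the 43 genes were higher, 11 lower and 24 not called, where 21.6% of all genes were higher and 21.0% lower. The members' shares were near the background. By library 7 members lay above all mutant libraries without 5-ALA and 13 below them, against 25.3% and 23.8% of all genes. The median was -0.029 for the members and 0.0056 for all genes. This split rested on the scaling: on library totals, where the median of all genes was -0.095 and 23.6% of all called genes were higher instead of 50.7%, 1 member was higher and 26 were lower, against 11.8% and 38.3% of all genes. On TPM, where the median of all genes was -0.15, 1 member was higher and 38 were lower, against 6.65% and 47.2% of all genes.

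Cox7a1 was the clearest rise with 5-ALA, and the 1 member that was higher under each scaling. It lay at 26.5, 27.4 and 28.2 CPM without and 40.7, 36.8 and 35.6 CPM with 5-ALA (log2 fold change 0.46 ± 0.0545, edgeR adjusted p = 5.67e-08). All 3 libraries with 5-ALA exceeded those of the mutant and also those of WT with estradiol. Atp5e lay at 30.1, 32.4 and 31.6 CPM without and 35.7, 36.8 and 33.6 with 5-ALA (log2 fold change 0.17 ± 0.048, edgeR adjusted p = 0.00565), and Uqcr10 at 53.5, 53.6 and 52.9 and 57.0, 59.1 and 58.2 CPM (log2 fold change 0.12 ± 0.0331, edgeR adjusted p = 0.00314). Neither overlapped, but both turned lower on TPM, at -0.025 for Atp5e and -0.079 for Uqcr10, and the call of Atp5e was also lost without replicate 2 of the group with 5-ALA. Cox5b, at 112, 119 and 125 CPM without and 121, 134 and 133 with 5-ALA (log2 fold change 0.12 ± 0.0467, edgeR adjusted p = 0.0486) overlapped between the groups. Its call was lost on library totals, with RLE size factors, with the replicate block and without mutant replicate 1 or 2 or 5-ALA replicate 2 or 3, and it turned to -0.078 on TPM. Atp5f1, the b subunit of the peripheral stalk, lay at 335, 334 and 331 CPM without and 351, 363 and 353 with 5-ALA (log2 fold change 0.095 ± 0.0232, edgeR adjusted p = 0.00128), with no overlap on this scale, but it was -0.0063 on library totals.

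The falls with 5-ALA were small. Atp5c1 lay at 81.1, 81.0 and 83.2 CPM without and 69.7, 70.0 and 67.0 with 5-ALA (log2 fold change -0.25 ± 0.0308, edgeR adjusted p = 1.17e-07), and Atp5o at 118, 117 and 120.2 and 103, 104 and 104 CPM (log2 fold change -0.19 ± 0.0296, edgeR adjusted p = 6.33e-06). Uqcrb, a small subunit of complex III, lay at 71.2, 74.6 and 74.0 and 68.1, 62.7 and 60.9 CPM (log2 fold change -0.20 ± 0.0361, edgeR adjusted p = 3.53e-05). Cox7a2l lay at 146, 158 and 157 and 135, 142 and 138 CPM (log2 fold change -0.15 ± 0.0289, edgeR adjusted p = 6.79e-05). None of these groups overlapped, and for Atp5c1, Atp5o and Cox7a2l the libraries with 5-ALA lay above those of WT with estradiol, whereas those of Uqcrb overlapped WT. Cox4i1 lay at 309.7, 321 and 329 and 298, 303 and 305 CPM (log2 fold change -0.082 ± 0.0229, edgeR adjusted p = 0.00435). Sdhd, Uqcrfs1, Uqcrc2, Atp5b and Atp5j fell by between 0.068 and 0.13 on the log2 scale, and Cox6b2, at 2.92, 2.72 and 4.17 and 2.16, 2.16 and 2.35 CPM, fell by 0.55 ± 0.207 (SE) on the log2 scale (edgeR adjusted p = 0.035). That call was lost with the replicate block, without mutant replicate 3 and without any of the 3 libraries with 5-ALA.

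The fourth comparison sets the mutant with 5-ALA beside WT, both with estradiol, and shares its groups with the comparisons above. In it 36 of 43 genes were higher, 0 lower and 7 not called, where 33.3% of all genes were higher and 29.0% lower. With DESeq2 the counts were 33 and 0, and 0 members were lower at an unadjusted edgeR p under 0.05. By library 38 members lay above all WT libraries and 0 below them, against 34.8% and 31.1% of all genes. The median log2 fold change was 0.25 for the members and 0.011 for all genes. The largest differences at 10 CPM or more were in Atp5g2, with 45.8, 46.1 and 44.8 CPM (log2 fold change 0.72 ± 0.136, edgeR adjusted p = 0.0015), Atp5o (log2 fold change 0.54 ± 0.0316, edgeR adjusted p = 3.86e-15), Uqcrfs1, with 59.1, 60.7 and 58.4 CPM (log2 fold change 0.52 ± 0.0394, edgeR adjusted p = 1.88e-12) and Cox7a2l (log2 fold change 0.48 ± 0.0304, edgeR adjusted p = 2.91e-14). Uqcrh, not called in the mutant without 5-ALA, lay at 449, 449.6 and 455 CPM (log2 fold change 0.080 ± 0.0247, edgeR adjusted p = 0.00575), a call that was lost with RLE size factors and with DESeq2. The erythroid markers summed to 54519 to 57656 CPM in this group, against 57229 to 57944 CPM in WT with estradiol, and the megakaryocyte markers to 18.3 to 18.8 CPM.

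Genes that work beside the complexes were read from lists of assembly factors, electron and nucleotide carriers, mitochondrially encoded subunits and transcriptional regulators. With estradiol 18 of 24 complex IV assembly factors fell and 4 rose, 4 of 6 fell for complex III with none called higher, 3 of 3 fell for complex V, and for complex II 2 of 4 fell and 1, Sdhaf2, rose by 1.65 on the log2 scale, where 46.4% of all genes fell and 43.3% rose. On library totals the complex IV factors split into 21 lower and 2 higher, where 54.0% and 35.2% of all genes were, and Surf1 turned from higher to lower. Pet117, a complex IV assembly factor, was rare and rests on few counts, with 0.675, 0.817 and 0.513 CPM untreated, 0, 0.0681 and 0 with estradiol, 1.95, 0.976 and 1.09 in the mutant and 0, 0 and 0.690 with 5-ALA, so that the mutant libraries without 5-ALA were above all others. Cox10, which farnesylates heme on the way to heme a, fell by 2.62 with estradiol in WT and Cox18, which inserts part of mt-Co2 into the membrane, fell by 2.46, while the copper chaperone Cox17 rose by 0.48. Bcs1l, which inserts the Rieske protein Uqcrfs1 into complex III, fell by 2.93. In the mutant against WT 13 of 24 complex IV factors were higher and 4 lower, where 35.1% and 33.6% of all genes were. On library totals these counts were 15 and 3, where 46.6% and 23.5% of all genes were. Uqcc2, an assembly factor of complex III, was 1.13 higher in the mutant on the log2 scale.

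All 6 genes for cytochrome c and the carriers fell with estradiol, where 46.4% of all genes did. Slc25a4, the heart and muscle form of the ADP/ATP carrier, lay at 134, 137 and 137 CPM untreated and 4.41, 4.77 and 3.74 with estradiol (log2 fold change -4.96 ± 0.0507, edgeR adjusted p = 2.43e-35). It was higher in the mutant, at 13.0, 12.6 and 12.5 CPM (log2 fold change 1.54 ± 0.0706, edgeR adjusted p = 8.94e-18), and lay between these values with 5-ALA, at 7.18, 7.51 and 7.75 CPM. The broadly expressed form Slc25a5 fell by 2.19 and cytochrome c, Cycs, by 1.40 on the log2 scale.

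The mitochondrially encoded subunits did not follow the nuclear ones in the mutant. With estradiol 5 of 6 fell in WT, where 46.4% of all genes fell and 43.3% rose. On the log2 scale mt-Cytb of complex III changed by -1.63, and mt-Co1 of complex IV rose by 0.39. Against WT, 5 of 6 were lower in the mutant, down to -0.45 for mt-Atp6, while 34 of the 43 nuclear genes were higher in the same libraries. mt-Cytb was the other, 0.099 higher. Over all genes 33.6% were lower and 35.1% higher. On library totals the split was also 5 lower and 1 higher, where 23.5% and 46.6% of all genes were. On TPM it was 3 and 1, where 19.2% and 46.4% of all genes were. Protocols that select polyadenylated RNA capture mitochondrial transcripts unevenly, and whether that was done is not given in the sources used here.

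Of 13 regulators of respiratory genes 12 were tested; 7 fell and 4 rose with estradiol, shares near those of all genes (46.4% and 43.3%). The mitochondrial transcription factor Tfam lay at 98.7, 100.5 and 101 CPM untreated and 17.5, 17.3 and 18.5 with estradiol (log2 fold change -2.50 ± 0.0401, edgeR adjusted p = 2.09e-30). The coactivator Pprc1 fell by 2.52 and its relative Ppargc1b fell by 2.71 on the log2 scale, and the mitochondrial RNA polymerase Polrmt fell by 1.79. Nrf1, Gabpb1, Yy1 and Hif1a rose, by 0.53, 0.80, 1.28 and 0.80. Gabpa shares exon sequence with Atp5j on the opposite strand, so their values, -0.15 and -0.64, may not be separate. Ppargc1a was at or near 0 and was not tested.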

How the data were processed

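TruSeq RNA libraries were made from TRIzol-purified RNA, per the labels' protocols. CASAVA 1.8.2, Bowtie 1.1.1, RSEM 1.2.20 and mm10 come from the submitters' processing notes. Annotation, strand setting and read length were not given in the sources used here. Per the file headers, the deposited tables hold for each of 25097 genes the RSEM expected count, in which reads shared between genes are divided by likelihood. The deposited TPM corrects for transcript length and depth, and a further column deposited by the authors holds each gene's abundance-weighted length. GENCODE M21 gave symbol and position for 24746 of the identifiers. Exons of 10 members overlap another gene on the opposite strand (Uqcrb, Uqcrc2, Cox4i1, Cox5a, Cox6a2, Cox6c, Atp5a1, Atp5d, Atp5f1 and Atp5j), and near-identical copies could share reads with members.

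Expected counts were rounded, filtered with filterByExpr (12115 genes kept), TMM-scaled and tested by edgeR 4.0.16 (R 4.3.3), whose robust quasi-likelihood model held a mean for each of the 4 groups and used all 12 libraries. The F tests were two-sided, with p-values adjusted by Benjamini-Hochberg over the 12115 genes and called below 0.05. Standard errors are approximate, the size of the log2 fold change divided by the root of F. The common biological coefficient of variation was 0.0334. Fits were tested on simulated data. TPM served for balance within complexes, isoform shares and 1 alternative with limma 3.58.1 on log2(TPM + 1). Other alternatives were RLE size factors, library totals, no filter, a filter of 10 CPM in 3 libraries, only the groups compared, a replicate block, each replicate left out and DESeq2 1.42.0. Values by library are given for the 4 largest called changes per direction at 10 CPM or more, the isoform groups, the highest TPM of each complex and members moving against their complex. The members and gene lists were chosen with earlier results of these data known.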

Additional observations from a re-analysis of the deposited data

How the results depend on the processing

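With estradiol in WT, the members called lower stayed within 28 to 35 and those called higher within 6 to 10 under every alternative. For the mutant against WT the count called higher stayed within 32 to 43, and for the mutant with 5-ALA against WT within 31 to 40. The 5-ALA comparison in the mutant depended on scaling: the 8 genes called higher became 1 on library totals, 1 on TPM and 5 without a filter, and the 11 called lower became 26 on library totals and 38 on TPM. The 1 gene called lower in the mutant than WT became 2 with RLE size factors and with the stricter filter, and 0 on library totals, on TPM and without a filter. The 0 called lower in the mutant with 5-ALA than in WT became 1 on TPM. The cause was not tested.

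With each replicate left out in turn, the counts lay between 7 and 7 (higher) and 28 and 30 (lower) with estradiol, 32 and 37 (higher) and 0 and 1 (lower) for the mutant against WT, 4 and 9 (higher) and 9 and 14 (lower) with 5-ALA, and 32 and 36 (higher) and 0 and 0 (lower) for the mutant with 5-ALA against WT. The lowest count higher with 5-ALA, 4, came without replicate 2 of the mutant with 5-ALA, and 5 came without mutant replicate 1 or 2.

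Some single genes turned direction; a value called in neither fit was not counted as turning. With 5-ALA, library totals gave -0.0063 for Atp5f1, -0.086 for Atp5g3, -0.024 for Cox6b1, -0.092 for Cox7a2 and -0.018 for Uqcrh, and TPM gave -0.025 for Atp5e, -0.11 for Atp5f1, -0.19 for Atp5g3, -0.078 for Cox5b, -0.12 for Cox6b1, -0.19 for Cox7a2, -0.079 for Uqcr10 and -0.12 for Uqcrh. In the mutant against WT, Sdhc turned to 0.063 on library totals and 0.088 on TPM, and Uqcrh, not called, to 0.15 and 0.19. Uqcr10, at -0.058 and not called with TMM, was called higher on library totals. With estradiol Sdhd turned to -0.135 on library totals and -0.081 on TPM, and Cox7a2l, not called, to 0.088 with the stricter filter.

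Same-numbered replicates did not deviate together: the correlations of 18 pairs lay between -0.104 and 0.0669 and 0 exceeded 0.1, while those of other pairs lay between -0.0925 and 0.115, so the numbers were not taken to pair the samples. With the replicate number as a block the counts were 7 higher and 29 lower with estradiol, 32 and 1 for the mutant against WT, 7 and 10 with 5-ALA, and 36 and 0 for the mutant with 5-ALA against WT.

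Depth limits what can be said of the rare isoforms: Cox7b2 had 0 counts, Cox4i2, Cox6a2, Cox8b and Cox8c had at most 29 counts in a group, and Cox6b2 had 5 in untreated WT. Intervals cover counting error only.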

Other observations

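Genes next to the complexes that the symbol rule leaves out were looked at after the values were seen. Atpif1, the inhibitor that keeps ATP synthase from running backwards, lay at 127, 128 and 132 CPM in untreated WT and 512, 499 and 503 in WT with estradiol (log2 fold change 1.97 ± 0.0243, edgeR adjusted p = 2.54e-33). Its treated libraries were all far above the untreated ones, while 12 of the 17 complex V genes fell in the same comparison. In the mutant it lay at 506, 518 and 514 CPM, overlapping WT (log2 fold change 0.023 ± 0.0227, edgeR adjusted p = 0.388), and with 5-ALA at 530.1, 542 and 545 CPM.

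Usmg5, a small membrane subunit of ATP synthase under an older symbol, lay at 63.2, 65.0 and 68.2 CPM untreated and 48.7, 47.7 and 46.8 with estradiol (log2 fold change -0.45 ± 0.0347, edgeR adjusted p = 3.75e-13). In the mutant, where 16 of the 17 complex V genes were called higher, it lay at 43.6, 44.1 and 44.5 CPM and was called lower (log2 fold change -0.12 ± 0.0365, edgeR adjusted p = 0.00627), but on library totals the difference turned to 0.038 and on TPM to 0.080. Higd1a, a factor that binds complex IV, lay at 52.6, 53.2 and 51.7 CPM untreated, 26.4, 26.3 and 25.6 with estradiol, 28.6, 31.4 and 30.8 in the mutant and 36.5, 36.4 and 38.4 with 5-ALA, so that each treated group was below the untreated one and the mutant groups were above WT with estradiol. The mitochondrial carrier Ucp2 lay at 353, 348 and 361 CPM untreated and 1732, 1701 and 1682 with estradiol (log2 fold change 2.27 ± 0.0284, edgeR adjusted p = 3.81e-33).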
